A study of Mus musculus with 12 samples.

Results

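The shared loci described here were places in the genome of embryonic cortical cells where a peak of 5-methylcytosine (5mC) overlapped a peak of 5-hydroxymethylcytosine (5hmC) and both marks differed between proliferating progenitors and neurons, 5mC downwards and 5hmC upwards. They were chosen by their values: the 2 peaks had to share at least 1 bp, the 5mC level had to be lower by 1 or more on the log2 scale in neurons than in proliferating progenitors, and the 5hmC level higher by 1 or more. Of 6735 overlapping pairs in the tables used here, 747 met both conditions (11.1%), and they were made of 747 different 5mC peaks and 746 different 5hmC peaks, annotated to 663 gene symbols. The words fall and rise stand below for these log2 differences and carry no test, because each table holds 1 averaged level per cell type and peak and no replicate values.

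The study sorted cells from the cortex of mouse embryos at E14.5, mid-corticogenesis, that carried 1 copy each of a Btg2-RFP and a Tubb3-GFP reporter. Cells with neither reporter were the proliferating progenitors (PP), cells with RFP alone the differentiating progenitors (DP), and cells with GFP, whether or not RFP was present, the neurons, and all 3 groups came from the same genotype. Sheared DNA of the 3 cell types was barcoded, mixed and precipitated together with an antibody to 5mC (MeDIP) or to 5hmC (hMeDIP), which gave 6 precipitated samples and 6 inputs, and the deposited level of a peak is the authors' mean over biological replicates on a log2 scale. The expression values used below come from earlier RNA-seq of the same cell types by the same group, and not from the precipitated samples. In that RNA-seq all 6 PP markers present were highest in PP, all 6 DP markers in DP and all 5 neuronal markers in neurons. Of these, Btg2 and Tubb3 are the reporter genes themselves. The markers describe the cell types and do not check the sort of the cells precipitated here. The read depth behind a level is not in the tables, so no counting error is given. Levels are given below in the order PP, DP and neurons.

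Methylation of cytosine, mostly where it is followed by guanine (CpG), is set by DNA methyltransferases, and TET enzymes oxidise 5mC to 5hmC. 5hmC is an intermediate on the way to unmethylated cytosine and also a stable mark that is abundant in the brain, above all in neurons. Antibody enrichment measures the density of a mark in a fragment and not the modified share of a single cytosine. In the developing cortex, radial glia and other PP divide to expand the pool, DP divide to produce neurons, and newborn neurons leave the cell cycle and migrate outwards.

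The coordinates are those of mm10. Exons, introns and untranslated regions could not be assigned, since the annotation used held only gene starts and ends, and sequence could be read only where a locus crossed a window before a RefSeq gene start (GRCm38.p6) or where the study had designed guide RNAs. Of the shared loci, 4 reached into the 250 bases before an annotated start, and the part of that window inside each locus is shown on the strand of the gene with every CpG, the substrate of both marks, in capitals.
Clnk, chr5:38876711-38876943, minus strand: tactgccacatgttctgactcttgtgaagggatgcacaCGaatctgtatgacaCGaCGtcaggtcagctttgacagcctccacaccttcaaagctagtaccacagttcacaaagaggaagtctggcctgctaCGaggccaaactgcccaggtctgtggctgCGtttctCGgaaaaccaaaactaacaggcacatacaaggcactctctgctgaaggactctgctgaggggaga
4930447N08Rik, chr3:122801981-122802162, minus strand: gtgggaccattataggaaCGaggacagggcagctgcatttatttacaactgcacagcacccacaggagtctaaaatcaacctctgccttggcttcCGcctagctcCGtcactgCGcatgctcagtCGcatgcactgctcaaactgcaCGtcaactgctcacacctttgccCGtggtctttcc
Gm51680, chr9:61033666-61033727, minus strand: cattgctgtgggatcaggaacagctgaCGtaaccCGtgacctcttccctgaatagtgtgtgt
Zbtb4, chr11:69765662-69765704, plus strand: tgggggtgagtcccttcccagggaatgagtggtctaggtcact

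These stretches held 6, 7, 2 and 0 CpG in the order shown, and the 250 bases before the start of the same 4 genes held 6, 7, 4 and 13. The median over 32851 RefSeq windows was 6, with quartiles of 2 and 16. The E-box CANNTG, the core motif read by basic helix-loop-helix (bHLH) factors and the same on both strands, occurred 1, 3, 1 and 0 times in them and stood in 66.2% of all windows. The E-box form CAGATG, searched on both strands, was found in none of the 4 stretches and in 14.4% of the windows of the full 250 bases.

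At the Clnk locus, Clnk being an adaptor protein of immune cells, 5mC was 5.78, 5.87 and 4.74 and 5hmC was 0.94, 3.31 and 4.81. At the 4930447N08Rik start, which the tables assign to Gm9364, 5mC was 4.88, 4.04 and 3.84 and 5hmC was 3.53, 4.86 and 6.07. At Zbtb4, which codes for a zinc finger protein that binds methylated DNA, 5mC was 4.85, 4.38 and 3.19 and 5hmC was 5.07, 5.33 and 6.09. At Gm51680, whose start is crossed by a locus named for Gm9869, 5mC was 5.26, 5.28 and 4.08 and 5hmC was 4.30, 5.11 and 6.74. In all 4 of them 5hmC stepped up at each transition, while most of the 5mC fall lay before DP at Gm9364 and after DP at the other 3.

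The study also designed pairs of guide RNAs, short RNAs that bring a dead Cas9 fused to the catalytic part of Tet1 to chosen loci, and 3 of its 5 target regions crossed a shared locus. Each guide is shown because it is the sequence through which the study directed the fusion protein to that region, with CpG in capitals.
Dchs1 guide 1, target chr7:105777824-105778152: ttcatgtggactgacacagc
Dchs1 guide 2, same target: ccctattctcctttctttcc
Enc1 guide 1, target chr13:97246240-97246462: cacaaccaacaaatggacca
Enc1 guide 2, same target: ctggtttcccagcacagctg
Wif1 guide 1, target chr10:121029536-121029699: attggctgagcaaggcagag
Wif1 guide 2, same target: ctgtcagtctgtcctCGagt

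The 3 targeted loci had unlike levels. Dchs1 codes for a large protocadherin that acts as the ligand of Fat4 in planar polarity, and at its locus, inside the gene 9660 bp from the TSS, 5mC was 3.78, 1.49 and 1.23 while 5hmC was 5.30, 6.03 and 6.46. At the locus in Enc1, which codes for an actin-binding protein of neurons, 5mC was 5.06, 3.55 and 0.11, and 5hmC was 3.05, 5.40 and 5.47. The neuronal 5mC value of Enc1 is the lowest in the whole table, so the size of its fall is limited by that floor. Wif1 codes for a secreted Wnt inhibitor, and 4305 bp upstream of it 5mC was 5.85, 5.29 and 4.25 and 5hmC was 4.05 and 4.98 in the progenitors and higher in neurons than in PP by 1.96. On the log2 scale 90.0% of the 5mC fall was already present in DP at Dchs1, against 30.5% at Enc1 and 34.9% at Wif1, and with the levels taken out of log2 the parts were 96.0%, 67.0% and 47.9%. The 5mC peak at Dchs1 was weak: its level in PP was below the lower quartile of 4.65 over the shared loci. Its level in DP was the lowest of all of them. Another shared locus lay in a region the study amplified after bisulfite treatment, within Prox1, a homeobox gene of early neurons and progenitors, although the tables name Gm17566 there (chr1:190161936-190162078). Its 5mC level was 5.36, 4.28 and 3.47 and its 5hmC level 3.17, 4.17 and 5.81.

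Across the 747 loci the median 5mC level was 5.09, 4.83 and 3.47, and the median 5hmC level was 3.06, 4.23 and 5.33. The quartiles were 2.81 and 4.17 for 5mC in neurons and 2.31 and 3.95 for 5hmC in PP, the 2 groups of values that set the loci apart. Against all overlapping pairs, with medians of 5.21 for 5mC and 4.64 for 5hmC in PP, the shared loci thus started at a similar 5mC level and at a lower 5hmC level, which is in part a result of choosing loci where 5hmC is higher in neurons. In neurons the median 5hmC of 5.33 was above the 5.06 of all pairs.

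**Figure D1:**
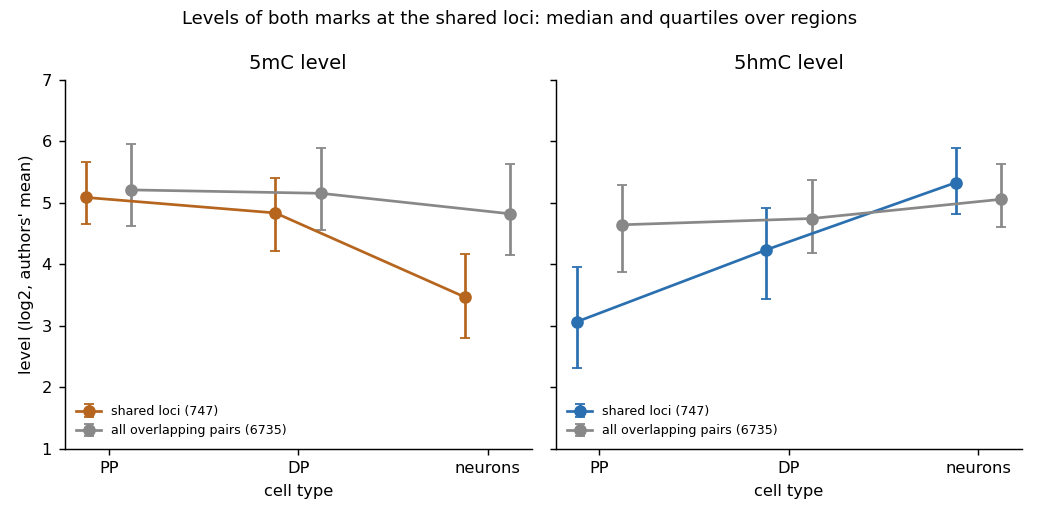
Level of 5mC (left) and 5hmC (right) on the authors' log2 scale in PP, DP and neurons, as the median with quartiles over regions, for the 747 shared loci (colour) and for all 6735 overlapping pairs (grey). The shared loci keep a 5mC median of 4.83 in DP and reach 3.47 in neurons, while their 5hmC median climbs from 3.06 through 4.23 to 5.33; bars show the spread between regions and not between replicates.

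The median 5mC difference between neurons and PP was -1.55, the farthest being -5.38 at a locus near Coro2b, and the median 5hmC rise was 2.12, the largest being 5.99 near Xylt1. Both extremes were reached at a table's lowest value, which 4 loci had for 5mC in neurons and 12 for 5hmC in PP. A 5mC fall of 2 or more was seen at 209 loci, a 5hmC rise of 2 or more at 411 and both at 120. How many of all pairs changed that far was not counted. Pairs with the 5mC fall but a 5hmC rise under 1 had a median 5mC difference of -1.54. Their lower quartile was -2.46, against -2.08 for the shared loci, so large 5mC falls were not particular to these loci. Pairs with the 5hmC rise but a 5mC fall under 1 had a median rise of 1.73. The rise of 5hmC exceeded the fall of 5mC at 535 loci (71.6%), a count of the values the rule used that was not made over all pairs. The 2 marks were measured with separate antibodies. Over all pairs, too, a 5hmC rise of 1 or more was commoner than a 5mC fall that large.

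Over all overlapping pairs 16.8% had a 5mC fall of 1 or more and 29.3% a 5hmC rise of 1 or more, and over all peaks the shares were 5.69% of 55085 for 5mC and 13.1% of 47478 for 5hmC. The shared loci were 66.2% of the 1129 pairs with the 5mC fall and 37.9% of the 1972 pairs with the 5hmC rise, which left 382 pairs with the fall alone and 1225 with the rise alone. The mirror pattern, 5mC higher and 5hmC lower by 1 or more in neurons, occurred at 0 pairs, among 26 pairs with such a 5mC rise and 51 with such a 5hmC fall. Both marks fell by 1 or more at 13 pairs and rose together at 0.

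**Figure D2:**
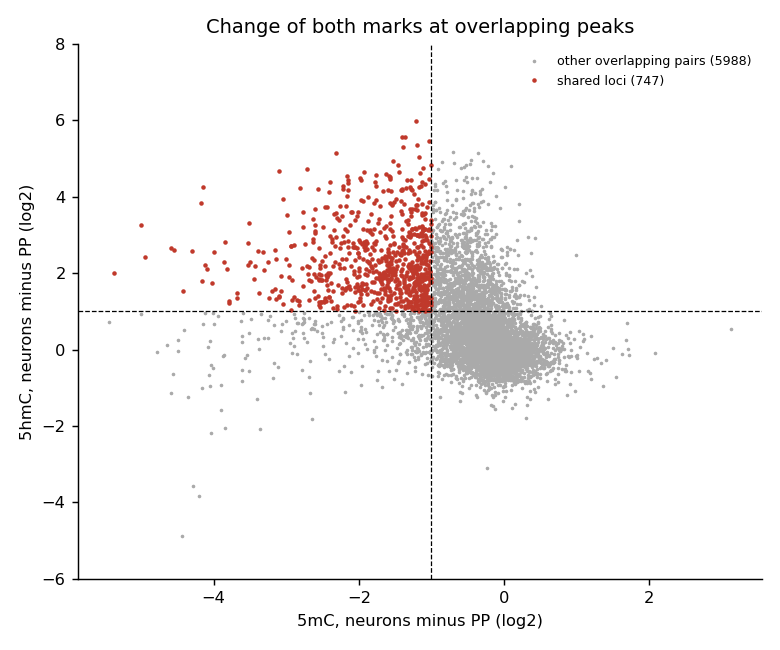
Difference between neurons and PP in 5mC (horizontal, log2) and 5hmC (vertical, log2) for every overlapping pair, with the 747 shared loci in red and the dashed lines at the thresholds of -1 and 1. The red points fill the upper left corner by construction, and the lower right corner, with 5mC up and 5hmC down past 1, holds 0 pairs.

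Among the loci themselves the size of the fall said little about the size of the rise: Spearman's rho of the paired differences was -0.07 over the 747 loci and -0.51 over all pairs, both as descriptions across loci that share libraries, the former over a range cut by the rule. The 5hmC rise followed the starting level, with rho of -0.80 between the 5hmC level in PP and the rise. Over all pairs rho of the PP level and the 5hmC difference was -0.69. These 2 quantities share the PP value. Just inside the thresholds stood a locus near Hmgb1-ps3, with 5mC at 3.70 in neurons and 5hmC higher by 1.16, and one near Chchd6, with 5hmC at 3.35 and 4.35. Just outside them the pairs near A930028C08Rik and Mrpl1 had 5mC at 5.63 and 6.63 in PP against 4.63 and 5.63 in neurons, and 5hmC higher by 1.39 and 2.86.

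DP, which the choice of loci did not use, lay nearer to PP than to neurons in 5mC. The median 5mC step was -0.31 up to DP and -1.27 after it, and a fall of 1 or more was found at 46 loci for the first step (6.16%, against 1.78% of all pairs) and at 527 for the second (70.5%, against 13.7%). For 5hmC the steps were alike, with medians of 0.98 and 1.09. A 5hmC rise of 1 or more was seen at 369 loci from PP to DP (49.4%, against 11.1% of all pairs) and at 422 from DP to neurons (56.5%, against 18.9%). Most of all pairs did not change that far in either mark. Of the pairs with the 5mC fall alone, 12.6% fell by 1 or more in the first step and 68.1% in the second. Of the pairs with the 5hmC rise alone, 28.3% rose by 1 or more in the first step and 60.9% in the second. Since the sum of the 2 steps was fixed to be large by the rule, these shares describe how the change was divided and not that it took place.

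As a part of the whole log2 change, the step to DP made up a median of 18.6% of the 5mC fall (95% interval of the median over loci, 16.7 to 20.2) and 48.0% of the 5hmC rise (46.0 to 50.3). Both intervals treat the loci as independent, although they share libraries, and hold no error between replicates. The 5hmC part exceeded the 5mC part at 591 loci (79.1%), and 308 loci had at least 50% of the 5hmC rise but under 50% of the 5mC fall in DP, against 37 the other way round. This order rested on the log2 scale. With the levels taken out of log2, an alternative added after seeing the data, the medians were 28.8% for 5mC and 28.0% for 5hmC, and the 5hmC part was the larger at 393 loci (52.6%). In terms of fold change 5hmC was thus further along in DP than 5mC, whereas out of log2 the 2 medians lay close together. Levels out of log2 are scaled antibody reads and not amounts of a mark. They cannot tell which part of either mark was gained or lost by DP. From bisulfite sequencing at selected loci, the paper reports typically at most a minor methylation loss before DP and a substantial one after it. It describes the gain of hydroxymethylation as similar at both transitions. Those measurements were not used here. The pairs with the 5hmC rise alone had a median of 37.4% of their rise in DP on the log2 scale, below the 48.0% of the shared loci, and the pairs with the 5mC fall alone had 21.9% of their fall, against 18.6%; neither difference was tested.

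**Figure D3:**
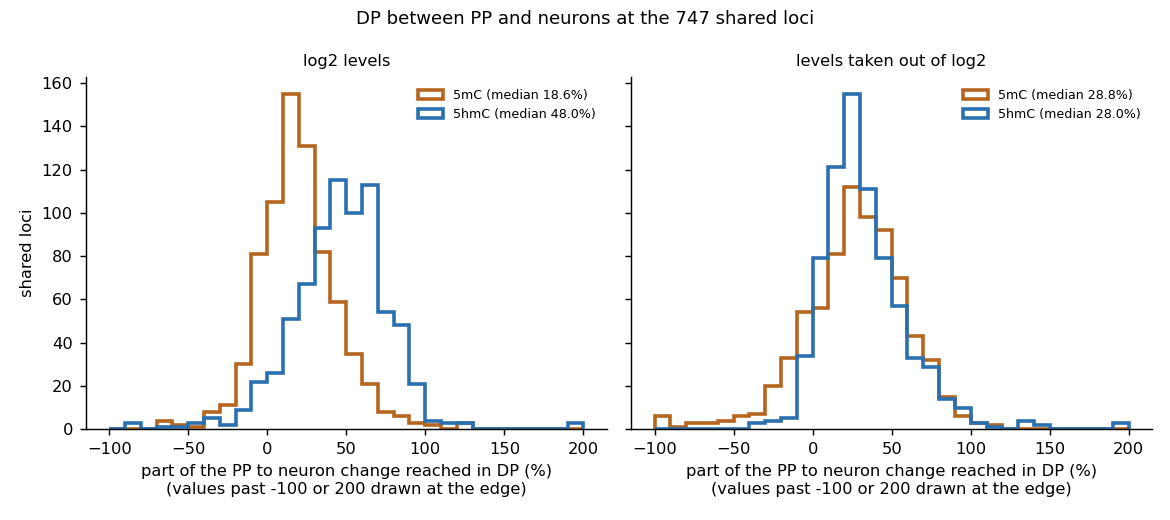
Number of the 747 shared loci by the part of the PP to neuron change already present in DP, in percent, for 5mC (brown) and 5hmC (blue), on log2 levels (left) and on levels taken out of log2 (right). The 2 distributions are offset on the left, with medians of 18.6% and 48.0%, and largely coincide on the right, with medians of 28.8% and 28.0%.

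The 8 loci with the largest change, ranked by the smaller of the 2 differences and leaving out those with a level at a table's lowest value, had neuronal 5mC between 0.47 and 2.52. The largest lay inside Nuak2, a kinase related to AMPK, 14417 bp from its TSS (chr1:132330455-132330632 for the 5mC peak). Its 5mC level was 4.61, 3.14 and 0.47 and its 5hmC level 0.35, 4.39 and 4.62, so that 94.7% of the 5hmC log2 rise was present in DP. The 0.47 was close to the lowest neuronal 5mC level of any peak, 0.11. The 0.35 was close to the lowest 5hmC level in PP, -0.05. These low levels limit the size of both changes at Nuak2. In Plcxd2, which codes for a protein with a phospholipase C domain, 3838 bp from the TSS (chr16:46006305-46006455), 5mC was 5.20, 4.60 and 2.39 and 5hmC was 5.91 in DP and 6.82 in neurons, a rise of 4.22 from PP. The gene had its highest expression in DP, at 2021, 9775 and 5216 on the scale the tables use. Of the other loci, the one 111811 bp upstream of Hdac4, a class IIa histone deacetylase, kept its 5mC in DP (4.54 and 4.52 in PP and DP) before 1.45 in neurons, whereas 5hmC went from 0.34 to 3.84 and 5.02. The locus 55823 bp upstream of Rapgef1, an exchange factor of the small GTPase Rap1, changed in nearly even steps. Its 5mC was 4.82, 3.42 and 1.84 and its 5hmC 2.14, 4.06 and 5.67.

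The tables name the gene with the nearest TSS, which need not be the gene the locus lay in. The remaining loci of the 8 are named for Gins2, 7SK, Gm13372 and Gm17116 but lay within Gse1, Apbb2, Col5a1 and Msra in the RefSeq annotation. In all, 547 shared loci (73.2%) were inside a RefSeq protein-coding gene, against 66.8% of all pairs, and at 221 of them (40.4%) the symbol in the tables was that of another gene, close to the 38.0% of all pairs inside such a gene. These genes were long: the median length was 122469 bp, against 87715 bp for all pairs, and 315 loci (42.2%) lay in a gene of over 100 kb, against 30.1% of all pairs.

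Few of the loci were at promoters. By the tables' own annotation 22 loci (2.95%) were centred within 1 kb of a TSS, close to the 3.09% of all pairs, 163 were 1 to 10 kb away, 308 were 10 to 50 kb, 155 were 50 to 100 kb and 99 were farther. The median distance was 28812 bp, against 23760 bp for all pairs. Of the 22, the 4 largest changes were near genes with low expression values in the earlier RNA-seq. At Apobec2, a member of the cytidine deaminase family known from muscle, 461 bp upstream of the TSS, 5mC was 6.12, 5.67 and 3.52 and 5hmC was 3.14, 4.94 and 6.23. At Psg16, a pregnancy-specific glycoprotein, 421 bp inside the gene, 5mC was 6.48, 6.11 and 4.06 and 5hmC was 2.83, 5.70 and 6.95. Its expression was 3.4, 3.8 and 58.7. The other 2 of the 4 were at Mustn1, a gene of the musculoskeletal system, and a copy of U1, a spliceosomal RNA, which lay within Opa3. The 22 also held a locus 883 bp upstream of Tubb3, whose expression was 105657 in neurons, so low expression was not general among them.

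The loci were spread over all autosomes, from 8.33% of the overlapping pairs on chromosome 1 to 14.1% on chromosome 18, with 0 of the 58 pairs on chromosome X. Another shared locus stood within 10 kb of 28 (3.75%), whereas 18.1% of all overlapping pairs, a far larger set, had another pair that near. Of the gene symbols 591 had 1 locus, 63 had 2, 8 had 3 and 1, the small RNA 7SK, had 6, which belonged to 2 copies of it within Apbb2 and Celf4.

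Peaks near the shared loci, which the rule had not used, differed from distant ones in the same directions. The 178 other 5mC peaks within 2 kb had a median difference between neurons and PP of -0.41 and the 291 at 2 to 5 kb one of -0.24, compared with -0.16 for peaks over 100 kb away. For 5hmC the median was 0.40 for 198 peaks within 2 kb, 0.18 at 2 to 5 kb and 0.18 at 10 to 20 kb, and -0.11 beyond 100 kb. A 5hmC rise of 1 or more was seen at 30.3% of the peaks within 2 kb and at 10.6% of those beyond 100 kb, and a 5mC fall of 1 or more at 15.2% and 4.10%. For 5hmC the median was 0.08 at 20 to 50 kb and 0.01 at 50 to 100 kb.

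**Figure D4:**
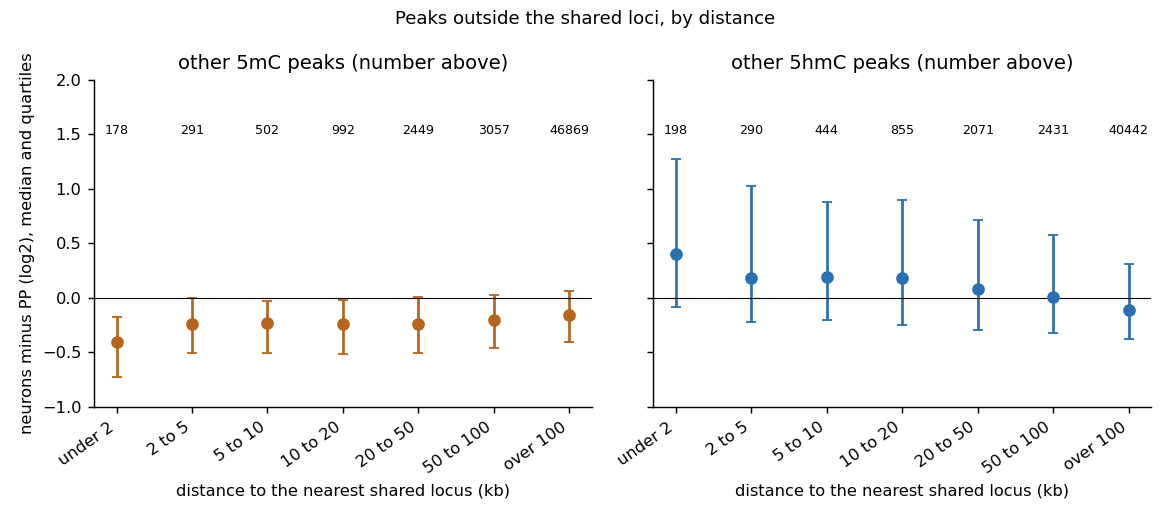
Difference between neurons and PP (log2), as the median with quartiles over peaks, for 5mC (left) and 5hmC (right) peaks outside the shared loci, by distance to the nearest shared locus, with the number of peaks above. The 5mC median is -0.41 within 2 kb and -0.16 beyond 100 kb, and the 5hmC median goes from 0.40 to -0.11.

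Expression of the nearest genes, which the choice of loci did not use, was shifted slightly towards neurons. The 668 genes, counted by symbol and expression values so that copies of small RNAs stay apart, had median values of 399.5, 546.4 and 626.5. Their median log2 ratio of neurons over PP, with 1 added to each value, was 0.24, against 0.06 for the 4472 genes of all pairs and -0.01 for the 16499 genes of all peaks. At least 2-fold higher in neurons were 218 genes (32.6%, against 26.5% of the genes of all pairs) and at least 2-fold lower were 137 (20.5%, against 23% of the genes of all pairs). From PP to DP 123 genes were at least 2-fold higher (18.4%, against 11.7%) and from DP to neurons 162 (24.3%, against 21.8%). For the genes of the pairs with only the 5hmC rise the median ratio was 0.21 and for those with only the 5mC fall 0.50, so the shared loci stood between these sets, differences that were not tested.

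Where the locus lay inside the gene the tables name, the 296 genes had a median ratio of 0.51. Of them, 112 (37.8%) were at least 2-fold higher in neurons. The same was not counted for all pairs inside the named gene, so these values have no matching background. Taking the RefSeq gene that holds the locus in place of the named one, the 409 genes with an expression value had a median ratio of 0.59, and 163 (39.9%) were at least 2-fold higher and 63 (15.4%) at least 2-fold lower. The same count over the host genes of all pairs gave a median of 0.24, with 30.9% higher and 22.5% lower. Genes of loci with 50% or more of their 5hmC log2 rise in DP had a median ratio of 0.21 and the others 0.29, and in the step from PP to DP their medians were 0.07 and 0.09. The medians of early and late loci thus lay close together. Markers of other cells also differed between the sorted groups: the summed expression of 10 interneuron genes was 8821, 9193 and 16345 in PP, DP and neurons, that of 11 glial genes 3849, 2413 and 1662, and that of 12 vascular and microglial genes 2207, 916 and 272. Their part in the levels at these loci was not tested.

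By role, genes of the differentiating progenitor had shared loci most often among the lists examined, 5 of the 7 such genes with an overlapping pair holding 6 of 11 pairs, against 11.1% over all pairs. The lists were drawn up with earlier results of these data known. The paper itself names Eomes, Dll3 and Tcf4 among the genes with loci that lose 5mC and gain 5hmC. The high place of this list is therefore not independent of those results. Eomes, the T-box factor of intermediate progenitors, held a locus 6221 bp inside the gene with 5mC at 4.18, 4.27 and 3.10 and 5hmC at 1.65, 3.46 and 5.07. Its expression was 10188, 50497 and 3626, so that 5hmC was highest in neurons, where the gene was lowest. Btg2, an antiproliferative gene whose reporter defined the DP, held a locus 3321 bp inside with 5mC at 6.21, 5.60 and 5.18 and 5hmC at 5.15 and 6.39 in PP and DP and 0.62 higher again in neurons. In Elavl4, an RNA-binding protein of neurons, 5mC was 4.65, 3.62 and 2.23 and 5hmC was 2.88, 3.84 and 4.26, with expression at 2427, 11658 and 8138. Eomes and Btg2 had lower expression in neurons than in PP and Elavl4 had higher, while the direction of both marks was the same by the choice of loci.

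Dll3, a divergent Notch ligand, was the locus with the lowest 5mC part in DP on the log2 scale, though not with the levels taken out of log2. Its 5mC was 4.50, 5.32 and 3.32. Its 5hmC level was nevertheless 0.99, 2.66 and 4.93, and its expression 281.2, 1689 and 901.1. Maml3, a coactivator of Notch, held 2 further loci, and together the Notch list had 3 of 12 pairs. Of the neurogenic bHLH list, Tcf4, the common partner of class II factors, held 2 loci inside the gene, at which 5mC went from 4.91 to 4.95 and 3.47 and from 4.46 to 4.25 and 2.98, and Nhlh2 held 1 upstream. The list had 3 of 11 pairs, and Tcf4 was also counted among the genes of the differentiating progenitor.

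The share of pairs that were shared loci varied between the lists of neuronal genes. Tubb3, the neuronal beta-tubulin whose reporter marked the neurons, had a locus 883 bp upstream of its TSS, which RefSeq places in the neighbouring Mc1r (chr8:123410483-123410602), with 5mC at 6.52, 6.03 and 4.36. Its 5hmC level stayed near that of PP in DP, at 3.03 and 3.30, and was 5.72 in neurons, whereas its expression was 3814, 25259 and 105657 and so had already climbed in DP. Nrxn2, a presynaptic adhesion molecule, held 2 loci, at 4754 and 24391 bp from the TSS; at the first 5mC was 4.91, 4.62 and 1.38 and 5hmC 2.90, 4.31 and 5.68. The synapse adhesion list had 2 of 21 pairs, the newborn neuron list 3 of 22 and the ion channel list 2 of 19, while the neurotransmitter receptor list had 0 of 8. Upper layer identity was represented by Cux2, a homeobox factor, with loci 13584 and 1636 bp upstream, the first with 5mC at 4.91, 4.59 and 2.90 and 5hmC at 0.74, 3.38 and 4.35. With Myt1l, a factor that keeps neuronal identity, the projection neuron list had 3 of 11 pairs.

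Axon guidance and adhesion genes held 8 of 28 and 7 of 21 pairs. Ephb2, a receptor of ephrins, held 3 loci, and at the one 2847 bp inside the gene 5hmC was lower in DP than in PP, at 2.25, 1.86 and 5.29, while 5mC was 4.27, 3.98 and 2.45. Its ligands Efnb2 and Efna5 held 2 loci and 1. Unc5a, a netrin receptor, had 5mC at 5.18, 4.64 and 3.89 and 5hmC at 1.20, 3.28 and 4.26, with expression of 224.2, 1543 and 4930. Cdh4, the retinal cadherin, held 3 loci in its gene body. The one 76937 bp inside had 5mC at 4.76, 3.91 and 0.47, the last close to the lowest level of any peak, and 5hmC at 2.98, 4.66 and 5.55. Fat1, a giant cadherin of progenitors, had a locus 50001 bp upstream at which 5hmC went from 4.13 to 5.56 and 6.59, with expression of 30220, 22259 and 1536. The genes of these lists thus included both ones with higher expression in neurons, such as Unc5a and Cdh4, and ones with lower expression, such as Fat1.

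**Figure D5:**
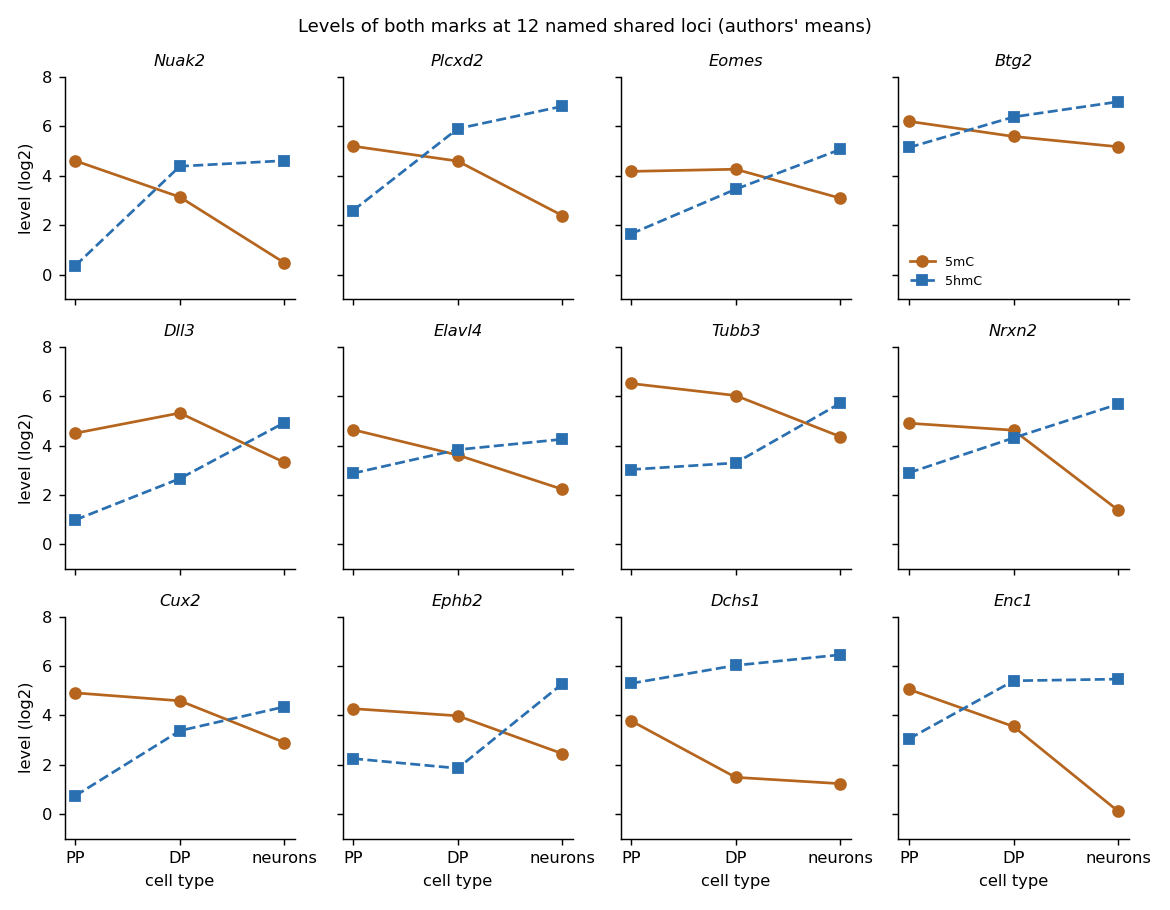
Level (log2, authors' mean) of 5mC (solid line, circles) and 5hmC (dashed line, squares) in PP, DP and neurons at 12 named shared loci, each panel titled with the gene the tables give. 5mC stays close to its PP level in DP at Eomes (4.18 and 4.27) and drops early at Dchs1 (3.78 and 1.49), a weak 5mC peak. 5hmC climbs early at Nuak2 and Enc1 and late at Tubb3 and Ephb2.

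The progenitor list had 1 of 15 pairs and the cell cycle list 1 of 12. The former was a locus 126865 bp downstream of Sox2, a factor that keeps progenitors. Its 5mC was 4.47, 3.80 and 0.47, the last close to the lowest level of any peak, and its 5hmC was 1.65, 4.00 and 4.19. Sox2 expression was 16755, 10576 and 1652. The cell cycle locus was named for Cdkn1c, an inhibitor of the cell cycle, but lay in Kcnq1, and its 5mC of 4.23, 2.88 and 3.18 was lowest in DP. The Wnt list had 3 of 32 pairs, at Wif1, Fzd1 and Fzd10, and the list of cytoskeleton and migration genes 4 of 18, at Tiam1, Cdk5r1 and Tubb3. Enzymes that set or remove cytosine methylation had 0 of 5 pairs, as had the glial list, and the interneuron list had 0 of 3. Among the vascular and microglial genes 1 of 5 pairs was a shared locus, 74446 bp upstream of Cdh5. With so few pairs per list, these counts are a description of the genes and not a difference between lists.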

How the data were processed

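MeDIP and hMeDIP libraries of 3 sorted cell types were aligned to mm10 with BWA 0.7.8-r455 and peaks were called with SICER 1.1, keeping peaks found in all replicates of a cell type and outside repeats, per the labels and the study's methods. The deposited log2 levels are means that the authors computed with DiffBind from TMM-scaled reads. The deposited expression values and distances to the TSS are taken as scores on the authors' own scale. Columns with the authors' fold changes and p-values were not used. Overlaps counted both peak ends. Python 3.11.15 with pandas 2.3.3, numpy 2.4.6 and scipy 1.17.1 gave all differences, medians and order-statistic intervals, and the pairing was tested on simulated data. Expression ratios used a pseudocount of 1. Loci and gene lists were chosen with earlier results of these data known. Named loci were the 8 of largest size, 4 near a TSS, genes with 4 or more loci, the largest of each of 18 lists (2 for lists with 5 or more), designed targets, threshold neighbours and extremes in DP; genes with 3 loci, the other list members and the promoter loci were added after seeing values. Alternatives covered overlap, threshold, centring, low levels, pseudocount and distance.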

Additional observations from a re-analysis of the deposited data

How the results depend on the processing

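The number of shared loci was 1521 with a threshold of 0.58 on both log2 differences, 328 with 1.5 and 270 when each peak's highest level had to reach the median of its table. Centring on the median difference of all peaks, which was -0.17 for 5mC and -0.08 for 5hmC, gave 620 loci, of which 594 were among the 747. With a stricter overlap the number was 694. The DP part of the 5mC fall had a median of 20.6% after centring and 28.8% with levels out of log2. That of the 5hmC rise was 54.4% at a threshold of 1.5, 44.7% with 5mC in neurons and 5hmC in PP at 2 or more, and 28.0% out of log2. Under the same 3 settings the 5hmC part was the larger at 86.3%, 75.6% and 52.6% of the loci. The median expression ratio was 0.59 for RefSeq host genes and lay between 0.18 and 0.39 under the other alternatives. The planned windows for CpG and E-box content at the loci were not run, since no genome sequence was at hand. No paired analysis was possible because the tables hold no replicate values, and the depth behind each level is unknown.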

Other observations

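At some shared loci DP did not lie between PP and neurons. The 5mC level was higher in DP than in PP at 137 loci (18.3%, against 18.2% of all pairs with the 5mC fall). 5hmC was lower in DP than in PP at 46 (6.16%, against 9.74% of all pairs with the 5hmC rise). It was higher in DP than in neurons at 13 (1.74%, against 1.27% of all pairs with the 5hmC rise). 5mC was lower in DP than in neurons at 5 (0.67%, against 0.89% of all pairs with the 5mC fall). All of these shares but that of the lower 5hmC in DP were close to those of all such pairs. Among loci that differed by 1.5 or more in both marks, the largest part of the 5hmC log2 rise in DP was seen in Arhgap10. There 5hmC at this gene of a GTPase-activating protein was 0.98, 4.64 and 2.77. Next came Gadd45gip1, a mitochondrial protein that binds Gadd45 proteins, at 4.20, 6.21 and 5.84. The opposite order was seen in Scn8a, a neuronal sodium channel, with 5hmC at 2.92, 2.10 and 4.49, and in Frmpd1, a scaffold protein, at 3.08, 2.43 and 4.62. Near Fzd1, a Wnt receptor, and in Dscam, an adhesion molecule, 5mC was highest in DP, at 4.18, 4.95 and 2.98 and at 4.02, 4.53 and 2.67. Without replicate values the spread of such levels could not be given.

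Several genes held more than 1 shared locus, and 3 of them are described here. The 3 loci named for Pitpnb lay in Ttc28 and had neuronal 5mC of 3.08, 2.66 and 0.52 and 5hmC of -0.05, 3.98 and 3.14 in PP. The -0.05 was the lowest 5hmC level in PP of any peak. The 0.52 was close to the lowest neuronal 5mC level, 0.11. These low levels limit the size of the 2 changes. In Mpped1, a gene expressed at 3003 in PP and 41413 in neurons, the locus inside the gene had a 5mC difference of -2.62, and the 2 downstream, in Efcab6, had -1.10 and -1.08. The 3 loci in Cmip, which the tables name 4933407C03Rik, had 5mC differences between -1.15 and -1.10 and 5hmC differences of 2.15, 4.28 and 1.24.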
